A study of Mus musculus with 6 samples.

Results

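The quiescence factors of resting B cells described here are 10 genes chosen by name: the Krüppel-like factors Klf2, Klf3, Klf4, Klf6 and Klf13, the forkhead factors Foxo1 and Foxp1, and the antiproliferative genes Btg1, Btg2 and Tob1. All 10 were found among the 23420 genes of the data, and all 10 passed the filter on low values, as did 11233 genes in all. The data are RNA-seq values of B cells from the spleens of WT BALB/c mice, in 3 stimulated and 3 unstimulated samples. Stimulated cells were cultured for 4 hours with CpG ODN 1826, a synthetic DNA that activates TLR9, at 10 μg/mL. Unstimulated cells were left without it. Cells of both groups were purified with magnetic beads, which leaves follicular and marginal zone B cells together, and were taken from 3 mice aged between 7 and 11 weeks. They were cultured in lots of 10 M at a density of 10 M per mL. The labels do not say whether a replicate number marks a mouse, so p values measure the spread between these samples. Replicates 1 and 2 of both groups were labeled female and replicate 3 male, so that sex and replicate 3 cannot be told apart.

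Naive B cells rest until they meet antigen, and this state is held by dedicated factors. Krüppel-like factors bind GC-rich and CACCC sequences through zinc fingers, and several of them hold back the cell cycle. FOXO1 drives cell cycle inhibitors and homing receptors until PI3K and AKT signaling sends it out of the nucleus. BTG and TOB proteins bind the CCR4-NOT deadenylase, an enzyme complex that shortens poly(A) tails, and so speed the decay of mRNA. Klf2, Klf4, Klf6 and Btg2 are also known as genes that respond within minutes to growth factors or to cell handling.

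The deposited values are read counts scaled to library size on a log2 scale (log2 CPM), normalized so that each sample has nearly the same distribution. A change in the RNA content of the cells can therefore not be seen. In a bulk sample, fewer cells of a type and less RNA per cell cannot be told apart. All 8 B cell markers were found, and their summed level was 11.53 to 11.72 log2 CPM in stimulated and 11.95 to 12.16 in unstimulated samples. Of the T cell list, 7 of 8 genes were matched, and Cd3e, Cd4, Cd8a, Cd8b1 and Thy1 were at or under the level of 3 reads in every sample. The erythroid list (5 of 6 genes matched) summed to 12.26 and 11.91 in replicate 2 of the stimulated and unstimulated groups, and to between 8.58 and 9.26 in the other 4 samples. The myeloid list, with 6 of 7 genes matched, summed to 1.75 to 2.51 in stimulated and 1.86 to 3.32 in unstimulated samples, with replicate 2 the highest in both. The summed level of plasmacytoid dendritic cell markers, led by Pacsin1, was 4.61 to 4.70 with CpG and 5.25 to 5.38 without, and that of NK cell markers was 0.59 to 1.37 and 1.58 to 1.78, with Ncr1 and Gzma at or under 3 reads. Endothelial markers summed to 1.07 to 1.15 with CpG and 0.67 to 0.79 without. The T cell list summed to -0.83 to -0.45 with CpG and -1.21 to -0.44 without, so that the groups overlapped. The other markers moved with the groups or with replicate 2. The part of all these markers in the results below was not tested.

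After 4 hours of CpG, 8 of the 10 quiescence factors were decreased at an FDR under 0.05, and 0 were increased (0 also at an unadjusted p under 0.05). Over all tested genes, 36.7% were decreased and 37.6% were increased. The decreased factors were Btg2, Klf6, Klf13, Klf4, Foxo1, Tob1, Btg1 and Klf3. In 5 of them, Btg2, Klf6, Klf13, Klf4 and Foxo1, the log2 fold change (log2FC) was also below -1, as it was in 15.3% of tested genes. The stimulated samples all lay below the unstimulated samples in the same 8 factors, against 38.6% of tested genes. Klf2 and Foxp1 did not pass in the unpaired fit. With the replicate number as a block, 9 factors were decreased, Klf2 among them (FDR = 0.00355), and 38.2% of tested genes were decreased. The median log2FC of the 10 factors was -1.04, and that of all tested genes was 0.0033. A comparison with replicate 2 left out of both groups was added after the data were seen. In it 9 factors were decreased, 5 of them past -1, and 35.2% of tested genes were decreased. The share of tested genes past -1 was not taken in this comparison.

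**Figure D1:**
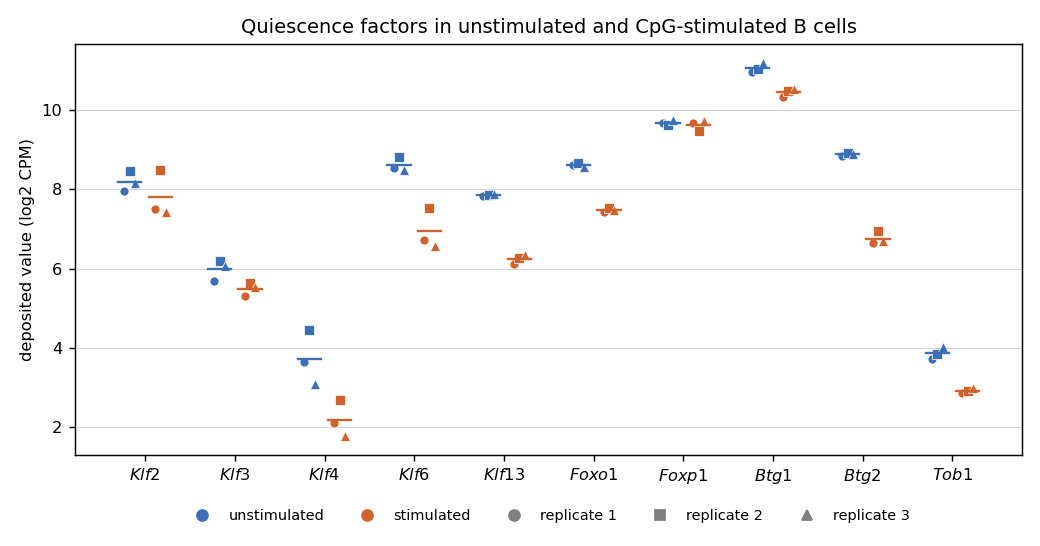
Deposited values (log2 CPM, vertical axis) of the 10 quiescence factors in 3 unstimulated (blue) and 3 stimulated (orange) samples; each point is 1 sample, its shape gives the replicate number, and bars mark group means. The groups are apart in 8 factors, and overlap in Klf2 and Foxp1.

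**Figure D2:**
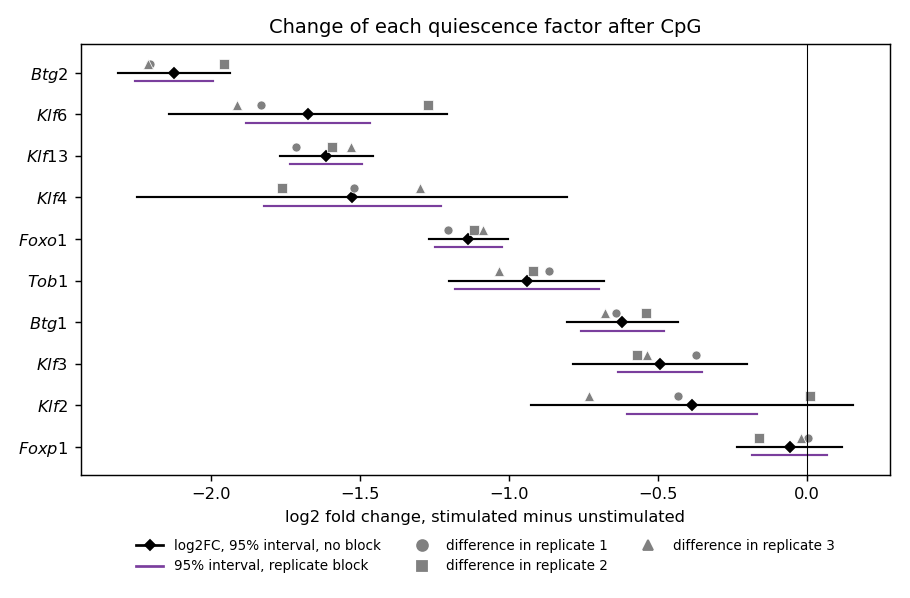
The log2FC of each factor, stimulated minus unstimulated (horizontal axis), with its 95% interval without (black) and with (purple) the replicate number as a block; grey symbols are the differences between samples of the same number. The values run from -2.13 for Btg2 to -0.06 for Foxp1, and the interval of Klf2 includes 0 only without the block.

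Bases just upstream of the start of transcription are shown for 4 of the factors, as these were the windows with a match to a searched motif other than the GC box in the part given. Each runs from 250 to 101 bases before the RefSeq start, read 5′ to 3′ on the strand of the gene, in the GRCm38.p6 assembly. Capitals mark the match.
Btg2, chr1:134079256-134079405, minus strand, with a CRE (TGACGTCA): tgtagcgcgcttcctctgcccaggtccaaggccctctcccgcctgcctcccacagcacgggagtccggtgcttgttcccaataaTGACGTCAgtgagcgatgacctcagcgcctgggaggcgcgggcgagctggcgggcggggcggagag
Klf4, chr4:55532576-55532725, minus strand, with an E-box (CACGTG): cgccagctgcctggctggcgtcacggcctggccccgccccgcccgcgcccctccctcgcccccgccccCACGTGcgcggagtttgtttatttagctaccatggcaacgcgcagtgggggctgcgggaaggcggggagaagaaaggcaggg
Btg1, chr10:96616751-96616900, plus strand, with a FOXO motif (TGTTTAC): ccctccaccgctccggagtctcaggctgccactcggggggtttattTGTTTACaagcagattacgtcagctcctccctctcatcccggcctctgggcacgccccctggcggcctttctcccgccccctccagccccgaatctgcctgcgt
Klf2, chr8:72318812-72318961, plus strand, with a MEF2 motif: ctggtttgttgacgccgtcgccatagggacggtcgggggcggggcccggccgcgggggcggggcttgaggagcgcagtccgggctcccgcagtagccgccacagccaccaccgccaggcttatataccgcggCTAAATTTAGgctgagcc

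The CRE, the letters bound by CREB and ATF factors, lay 166 to 159 bases before the start of Btg2. On either strand, 1.79% of 32851 mouse windows of the same 300 bases held it, and 3.15% of those of tested genes. The FOXO letters lay 204 to 198 bases before the start of Btg1, and 3.65% of windows held them (2.46% for tested genes). The MEF2 letters lay 118 to 109 bases before the start of Klf2 (0.557% of windows, 0.347% for tested genes). The E-box lay 182 to 177 bases before the start of Klf4 and 43 to 38 bases before that of Klf6. It was in 7.15% of windows and 10.4% of those of tested genes. The GC box (GGGGCGG), the type of letters that Sp and Krüppel-like factors bind, was found for all 10 factors, in 11 of their 12 windows, and in 23.2% of all windows and 42.3% of those of tested genes. Searched letters of AP-1 (TGANTCA), the CACCC box (CCACACCC), the CArG box and kB were in none of the 12 windows. A match describes the letters of a window and does not show that a factor binds there.

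Among the Krüppel-like factors, Klf6, Klf13 and Klf4 each had a log2FC below -1.5, and their order changed when single samples were left out. Klf6, a widely expressed factor that many stimuli induce, was at 8.55, 8.81 and 8.50 log2 CPM in unstimulated replicates 1 to 3 and at 6.71, 7.54 and 6.58 in the stimulated ones. Replicate 2 was the highest of both groups, and the groups did not overlap. The log2FC was -1.67 (SE 0.21, FDR = 4.13e-05), so that 31.3% of the unstimulated level was left. Klf13, a factor known for its binding to the Ccl5 promoter in T cells, was at 7.84, 7.87 and 7.89 without and at 6.13, 6.27 and 6.36 log2 CPM with CpG. Its samples lay close together in both groups, and its log2FC of -1.61 had a smaller SE than that of Klf6 (0.07, FDR = 4.31e-08).

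Klf4, which restrains the proliferation of naive lymphocytes, was among the lowest of the factors. It was at 3.63, 4.44 and 3.08 log2 CPM in unstimulated and at 2.12, 2.68 and 1.78 in stimulated samples. Replicates of 1 group differed by more than 1 on the log2 scale, yet each stimulated sample was below each unstimulated one. The log2FC of Klf4 was -1.53 (SE 0.32, FDR = 0.00163), and the call was lost when no filter on low values was used (FDR = 0.0634). Klf4 is also expressed in monocytes, and the summed myeloid markers, given above, were likewise highest in replicate 2 of both groups. Replicates 1 and 3 were in the other order. The myeloid sum was 1.86 and 2.97 in unstimulated and 1.75 and 2.01 in stimulated replicates 1 and 3, while Klf4 was lower in replicate 3. The part of myeloid cells in the values of Klf4 was not tested.

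Klf3, a repressor that works with the corepressor CtBP, changed less. It was at 5.68, 6.20 and 6.07 log2 CPM without and at 5.31, 5.63 and 5.53 with CpG, a log2FC of -0.49 (SE 0.13, FDR = 0.00607). The highest stimulated sample was 0.06 below the lowest unstimulated one. The call was lost without the filter (FDR = 0.101) and when replicate 3 was left out of both groups (FDR = 0.0546).

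Klf2, which keeps naive lymphocytes resting and drives receptors that let them leave tissues, overlapped between the groups. It was at 7.95, 8.47 and 8.17 log2 CPM in unstimulated and at 7.51, 8.48 and 7.44 in stimulated replicates 1 to 3. Stimulated replicate 2 was the highest of the 6 samples, and the other 2 stimulated samples were the lowest. The log2FC was -0.38 (SE 0.24, FDR = 0.173), with a 95% interval from -0.92 to 0.16. With the replicate number as a block the same difference had an SE of 0.10 and an FDR of 0.00355, and with the block and no filter on low values it did not pass (SE 0.19, FDR = 0.333). Differences within a number were -0.43, 0.01 and -0.73. With stimulated replicate 2 left out the log2FC was -0.72 (FDR = 0.000339), and with both samples of number 2 left out it was -0.58 (FDR = 0.000395). It was -0.24 without stimulated replicate 1 (FDR = 0.426), -0.20 without stimulated replicate 3 (FDR = 0.493), -0.25 without unstimulated replicate 2 (FDR = 0.425) and -0.21 with replicate 3 left out of both groups (FDR = 0.560). The call on Klf2 thus rested on the block, the filter and the samples used.

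Both forkhead factors were high in resting cells but differed after CpG. Foxo1, which drives Il7r and Rag genes in lymphocytes, was at 8.62, 8.65 and 8.56 log2 CPM in unstimulated and 7.42, 7.53 and 7.48 in stimulated samples. Its groups were far apart beside a range of at most 0.12 within a group, with a log2FC of -1.14 (SE 0.06, FDR = 1.05e-07). Foxp1, which is needed for early B cell development and for the resting state of naive T cells, was at 9.67, 9.62 and 9.74 without and 9.67, 9.46 and 9.73 log2 CPM with CpG. The groups overlapped, with stimulated replicate 2 below all unstimulated samples. The log2FC of -0.06 did not pass (SE 0.08, FDR = 0.525, and 0.376 with the block). Its 95% interval ran from -0.23 to 0.12.

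Btg2, an antiproliferative gene that p53 also induces, had the most negative log2FC of the 10 factors. It was at 8.84, 8.92 and 8.90 log2 CPM without and at 6.63, 6.96 and 6.68 with CpG. The log2FC was -2.13 (SE 0.08, FDR = 3.11e-08), which is 4.36-fold lower, and 3.42% of tested genes had a lower value. Btg1, its close relative that is often mutated in B cell lymphoma, was the most abundant of the 10 factors in both groups. It was at 10.97, 11.03 and 11.19 in unstimulated and at 10.33, 10.49 and 10.52 log2 CPM in stimulated samples, without overlap. The log2FC of Btg1 was -0.62 (SE 0.08, FDR = 7.56e-05), so that 65.1% of the unstimulated level was left. Its call was lost with the block and no filter (FDR = 0.0568).

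Tob1, a related protein that binds both the deadenylase and poly(A)-binding protein, was at 3.72, 3.84 and 4.02 log2 CPM in unstimulated and at 2.85, 2.92 and 2.99 in stimulated samples. All 3 stimulated values were lower than all unstimulated ones. The log2FC was -0.94 (SE 0.12, FDR = 3.87e-05). Of the other members of this family, Tob2 was at 9.38 ± 0.12 without and 7.94 ± 0.04 log2 CPM with CpG (SD, n = 3), and fell with a log2FC of -1.45 (SE 0.07, FDR = 7.88e-08), while Btg3 and Btg4 did not pass the filter on low values.

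Klf2, Klf3, Klf4, Klf6, Foxo1 and Btg2 were highest in replicate 2 of both groups, as were 14.6% of tested genes. The remaining 4, Klf13, Foxp1, Btg1 and Tob1, were highest in replicate 3 of both groups, as were 11.9% of tested genes. Erythroid and myeloid markers were also highest in replicate 2, and their part in this pattern was not tested. Klf1, the erythroid member of the Krüppel-like family, was at 0.08 and -0.17 log2 CPM in the stimulated and unstimulated samples of number 2, and between -3.01 and -0.49 in the others. A shift by replicate number in the deposited values, described with the processing, moves differences between numbers. It leaves the log2FC unchanged only where each number kept has a sample in both groups. With a single sample left out, such a shift can enter the log2FC and the difference within a pair of factors.

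The balance between related factors was compared within samples, in 6 pairs, with an exact two-sided permutation test that cannot give a p below 0.1 for 3 against 3 samples. Klf2 minus Klf6 was -0.42 ± 0.15 log2 CPM in unstimulated and 0.87 ± 0.07 (SD, n = 3) in stimulated samples, on a scale that is not set per length. The log2FC of Klf2 was thus higher than that of Klf6 by 1.29 (exact permutation p = 0.1, adjusted p = 0.12). Btg1 was above Btg2 by 2.18 ± 0.10 without and 3.69 ± 0.15 log2 CPM with CpG, which widened the gap by 1.51. Foxo1 was below Foxp1 in every sample, with a difference of -1.07 ± 0.11 without and -2.14 ± 0.19 with CpG, a change of -1.08. Klf2 minus Klf4 rose by 1.14, and Klf3 minus Klf13 by 1.12. In these 5 pairs the groups did not overlap and p was 0.1, the smallest possible (adjusted p = 0.12), so that none could pass a threshold of 0.05. Klf2 minus Klf3 changed by 0.11 (p = 0.9 in the exact permutation test), and with stimulated replicate 2 left out by -0.16.

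**Figure D3:**
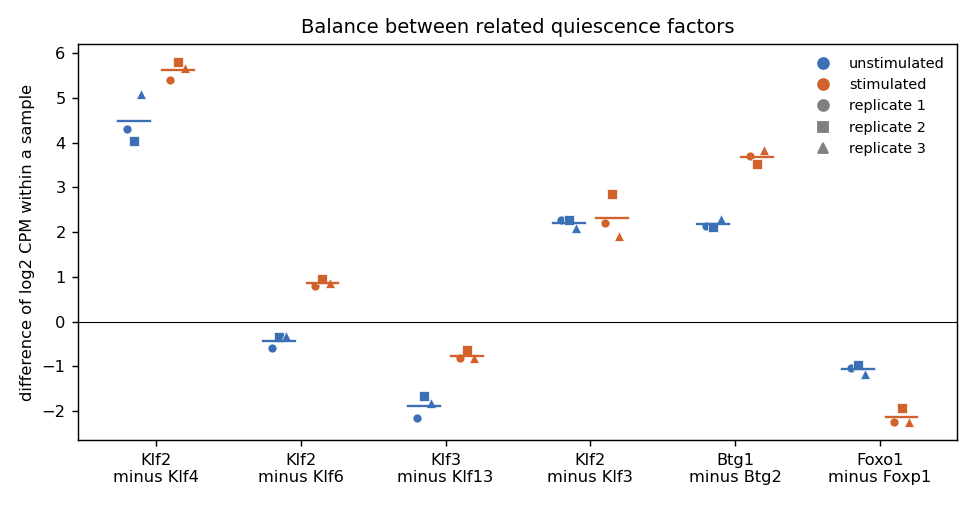
Difference of log2 CPM between 2 factors within a sample (vertical axis) for 6 pairs, in unstimulated (blue) and stimulated (orange) samples; point shapes give the replicate number, bars the group means and the line at 0 equal values. Klf2 minus Klf6 is below 0 in all 3 unstimulated and above 0 in all 3 stimulated samples. These values are not set per length, and per length Klf2 is above Klf6 in every sample of both groups.

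Levels were also set per length, as log2 CPM minus the log2 of the summed exon length in kb. In unstimulated samples Btg1 came first at 8.67 ± 0.12, followed by Btg2 (7.43 ± 0.04), Klf2 (7.31 ± 0.26), Klf6 (6.48 ± 0.17), Foxp1 (5.90 ± 0.06), Foxo1 (5.50 ± 0.05) and Klf13 (4.95 ± 0.02) on this scale (SD, n = 3). Tob1 at 2.67 ± 0.15, Klf3 at 2.49 ± 0.27 and Klf4 at 2.11 ± 0.68 were the lowest. Btg2 and Klf2 overlapped, as did Tob1 and Klf3, and Klf3 and Klf4, whereas the other neighbors did not. In stimulated samples the order per length was Btg1 (8.05 ± 0.10), Klf2 (6.92 ± 0.58), Foxp1 (5.84 ± 0.14), Btg2 (5.30 ± 0.18), Klf6 (4.81 ± 0.52), Foxo1 (4.36 ± 0.06), Klf13 (3.34 ± 0.12), Klf3 (1.999 ± 0.16), Tob1 (1.73 ± 0.07) and Klf4 (0.58 ± 0.45). Only Btg2 and Klf6 overlapped among these neighbors. Btg2 went from the second place to the fourth, and Foxp1 from the fifth to the third. The summed exons include those of all annotated isoforms, which lowers the value of a gene with many of them, such as Foxp1 with 13.751 kb.

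The genes lie on different chromosomes, in GRCm38 coordinates. Btg2 is at chr1:134075170-134079120, Foxo1 at chr3:52268336-52353221, Klf4 at chr4:55527143-55532466, Klf3 at chr5:64803388-64832901 and Foxp1 at chr6:98925338-99522721. Klf13 is at chr7:63886351-63938915, Klf2 at chr8:72319033-72321656, Btg1 at chr10:96617006-96622809, Tob1 at chr11:94211454-94215495 and Klf6 at chr13:5861482-5870394. An antisense gene, Gm20402, shares 674 bases (7.78%) of the exons of Foxo1, and Gm20033 shares 404 bases (3.59%) of those of Klf3 on the other strand. On its own strand, Foxp1 shares 300 bases (2.18%) with Gm20696 and 135 bases with Gm49348. The strand setting of the counting is not given in the sources used here, so reads of these stretches are uncertain.

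Other genes of the same families and pathways were described from lists. Of 21 other KLF and SP factors, 12 passed the filter, 8 were decreased and 1 was increased, with a median log2FC of -0.58. Over all tested genes, the shares were 36.7% decreased and 37.6% increased. Klf8 (-1.60), Sp3 (-1.10), Klf9 (-0.98), Sp4 (-0.92) and Klf11 (-0.66) fell, and Klf16 rose (0.99). With the block 3 were increased, as Klf10 (0.27, FDR = 0.0217) and Klf12 (0.36, FDR = 0.00866) also passed. Of 4 tested FOXO and FOXP factors, Foxo3 fell from 5.72 ± 0.10 to 3.72 ± 0.13 log2 CPM and Foxo4 from 5.26 ± 0.12 to 3.53 ± 0.19 (SD, n = 3). Their log2FC values were -2.00 and -1.73, beside -1.14 for Foxo1. Foxp4 rose by 1.31, from 6.64 ± 0.14 to 7.95 ± 0.06, while Foxp3, the factor of regulatory T cells, was near the limit of the filter and passed with an FDR of 0.0478 (0.0307 with the block), which it lost in 12 of the 16 alternatives that gave a value.

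The machinery that BTG and TOB proteins work through held genes that changed in each direction, as all tested genes did (36.7% decreased, 37.6% increased). Of 14 tested genes of the CCR4-NOT and PAN deadenylases and poly(A)-binding proteins, 8 were decreased and 4 increased, with a median log2FC of -0.19. Cnot6l (-1.27), Cnot8 (-0.77), Cnot6 (-0.49), Pan3 (-0.45) and Cnot3 (-0.38) fell, and the poly(A)-binding protein Pabpc4 rose (0.71). Cnot7 and Cnot8 encode the nucleases that BTG and TOB proteins bind, and Cnot7, named after its value was seen, rose by 0.24 (FDR = 0.00555).

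Genes known as targets of KLF2 or FOXO1 had some of the most negative values. Of 21 tested, 16 were decreased, 15 of them with a log2FC below -1, and 3 were increased, with a median log2FC of -2.07. Among all tested genes, 36.7% were decreased, 15.3% were decreased past -1 and 37.6% were increased. Fbxo32, a ubiquitin ligase gene that FOXO factors drive, was at 4.76, 4.69 and 4.82 log2 CPM without and at 0.78, 1.01 and 1.08 with CpG (log2FC -3.80, SE 0.13, FDR = 1.64e-08). Pik3ip1, an inhibitor of PI3K, fell by 3.15 on the log2 scale, and Txnip, an inhibitor of glucose uptake, by 2.87. Integrin Itgb7 fell by 2.90, and the sphingosine receptor S1pr1 by 3.71. Rag1, which rearranges antigen receptor genes, went from 2.45 ± 0.33 to -1.04 ± 0.34 log2 CPM (SD, n = 3), below the level of 10 reads. The 3 increased genes were Bcl6 (1.03), Ccr7 (0.62) and Cxcr5 (0.45), and Il7r (0.09) did not pass, all named after their values were seen.

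Kinases and binding proteins that keep FOXO1 out of the nucleus had no common direction, with 5 of 12 increased and 5 decreased. These counts were near the shares over all tested genes, 37.6% increased and 36.7% decreased. The median log2FC of the list was 0.14. Akt1 rose by 0.96, while Sgk3 (-1.24) and Sgk1 (-0.51) fell. Of the 14-3-3 genes, Ywhag rose (0.81) and Ywhaz fell (-0.49). Transcript levels say nothing of the phosphorylation of FOXO1, which was not measured.

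Of 20 other genes tied to lymphocyte quiescence, 15 were decreased, 10 of them past -1, and 4 were increased, with a median log2FC of -0.93. The shares over all tested genes were 36.7% decreased, 15.3% decreased past -1 and 37.6% increased. Mxd4, an antagonist of MYC, fell from 4.23 ± 0.08 to 1.04 ± 0.32 log2 CPM (SD, n = 3). Tsc22d3 (-2.90), the cell cycle inhibitor Cdkn2d (-2.58) and the pocket protein gene Rbl2 (-1.55) also fell. Cdkn1a, the p21 inhibitor, rose by 1.91 (SE 0.23, FDR = 3.45e-05). Stimulated replicate 2 stood apart in Cdkn2d, at 2.30 against 0.50 and 0.78 log2 CPM.

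Immediate early genes were set beside the factors, since several of the factors respond to handling as these do. Of 14, 10 were decreased and 2 increased, with a median log2FC of -0.47, beside 36.7% decreased and 37.6% increased over all tested genes. Fosl2 (-2.18), Fosb (-2.10), Fos (-1.99), Egr1 (-1.93) and Zfp36 (-0.89) fell, and Jun rose from 6.69 ± 0.28 to 10.01 ± 0.02 log2 CPM (SD, n = 3). In Egr1, the unstimulated samples were at 9.97, 9.81 and 9.73. Of these genes 2 of 14 were highest in replicate 2 of both groups, as were 14.6% of tested genes. In replicate 1 of both groups 3 of 14 were highest, as were 19.0% of tested genes. The part of cell handling in the values of the factors was not tested.

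**Figure D4:**
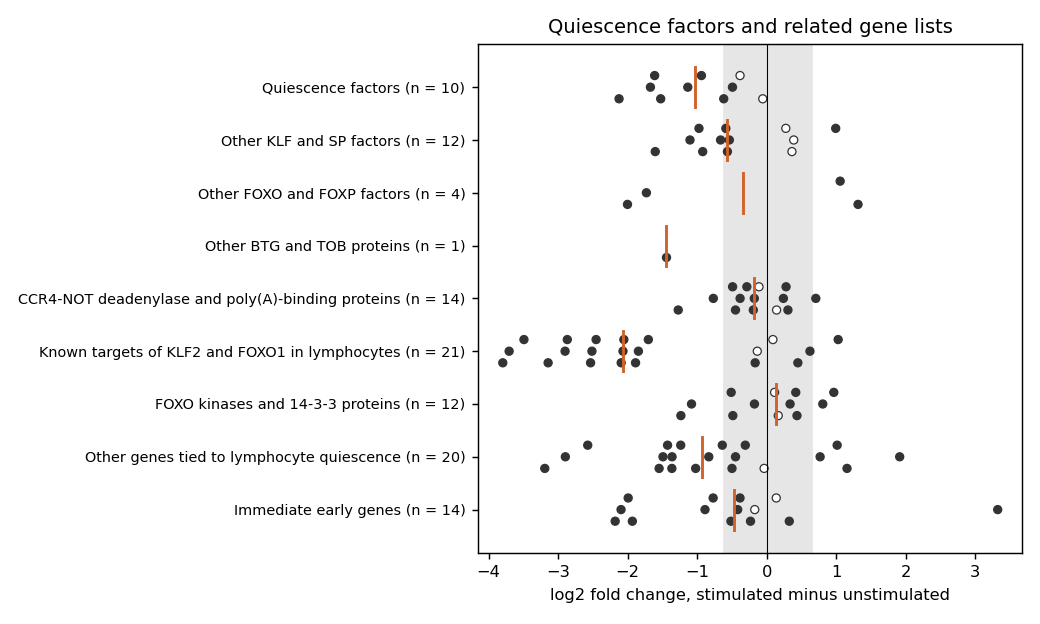
The log2FC (horizontal axis, stimulated minus unstimulated) of each tested gene of the 10 factors and of 8 lists; filled points passed an FDR of 0.05, orange bars are list medians and the grey band holds the middle 50% of all tested genes. The median of the targets of KLF2 and FOXO1 was -2.07, and that of the FOXO kinases and 14-3-3 proteins was 0.14.

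For each factor the tested gene with the most similar pattern over the 6 samples was sought, by the root mean square (RMS) difference of values centered on their mean. Klf6 was most like Epb4.1 (RMS 0.10), a gene of the membrane skeleton of red cells and other cells, Klf2 was most like Cebpb (0.13) and Klf4 most like Cystm1 (0.23). Klf13 was most like Ostm1 (0.03), Klf3 like Izumo4 (0.06), Foxo1 like Gm16973 (0.03) and Foxp1 like Zfp664 (0.02). For Btg1 the gene was Sharpin (0.03), for Btg2 Afap1 (0.04) and for Tob1 Ddx58 (0.04). The smallest distance in each case was sought among all tested genes, and no test was made of it.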

How the data were processed

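Cultures of B cells from BALB/c spleens were compared after 4 hours with or without CpG, in 3 samples per group, grouped by the sample labels. Per the submitters' processing notes, reads were checked with FastQC 0.11.7, trimmed with Trim Galore 0.6.5, aligned to mm10 with STAR 2.6.1a and counted with featureCounts (Subread 2.0.1). The authors quantile normalized the counts and applied voom. The deposited values are log2 CPM and no counts were used. The value that occurs most often, -5.15, was read as 0.5 reads, so that the common library size is 17.8 M. Depth of single samples is unknown.

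The groups were set against each other in R 4.3.3 with limma 3.58.1 (lmFit, eBayes with a trend, 6 samples, group as the only term). Of 23420 genes, 11233 were tested, those in which 3 or more samples exceeded the level of 10 reads (-0.76). Benjamini-Hochberg adjustment was made over all tested genes (FDR, threshold 0.05). The value of 3 reads (-2.34) covers counting error only. The fit was tested on simulated data.

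Deviations from the group means correlated by 0.435, 0.224 and 0.300 between samples of the same replicate number and by -0.281 to 0.0279 between others, so the numbers were taken to pair the samples and the unpaired fit was accompanied by 1 with the number as a block. The values also carry a shift by number (0.167 of a step of 1 read, in the median of 254 genes), which can give such correlations as well.

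All 10 factors are named. Of each list at most 6 genes are named, those with the largest absolute log2FC. Some list genes are not reported here by name. The factors, lists, markers and motifs were chosen with earlier results of these data known. Lengths and positions are from GENCODE M21 and promoter windows from RefSeq, both on GRCm38. Alternatives covered scale, filter, block, centering, variance trend, a test against a log2FC of 1, and left-out samples.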

Additional observations from a re-analysis of the deposited data

How the results depend on the processing

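Over 17 alternatives, the 10 factors gave 170 log2FC values, of which 157 kept their direction and their side of the threshold. Of the rest, 9 values in 5 genes no longer passed, 3 values of Klf2 newly passed, and 1 value of Foxp1, which did not pass in any alternative, changed sign: with single samples or numbers left out, the log2FC of Foxp1 ran from -0.11 to 0.0202, the latter without stimulated replicate 2. The count of decreased factors was 8, with a range of 7 to 9 when samples were left out (31.5% to 36.9% of tested genes). It was 9 with the replicate block (38.2% of tested genes) and 6 with no filter on low values. Tested against a log2FC of 1, 3 factors were decreased (Btg2, Klf6 and Klf13), as were 8.62% of tested genes. This was in place of 8 decreased at all and of 5 past -1. Of the other quiescence genes, 8 were decreased in place of 15. This test asks for a larger change by its construction. The count past -1 was 5, 4 with no filter and 6 without unstimulated replicate 1, where Tob1 was at -1.01. The share of tested genes past -1 was 15.3% in the main fit. It was not taken with no filter or with that sample left out. The difference Klf2 minus Klf3 reversed to -0.158 without stimulated replicate 2, in a range of -0.16 to 0.32 over left-out samples; the cause was not tested. With the filter, the replicate block changed no call among the 10 factors other than that of Klf2. With no filter it ended the call of Btg1 (FDR 0.00979 without and 0.0568 with the block) and Klf3 (0.101 and 0.0233) and Klf4 (0.0634 and 0.0133) passed with it, while Klf2 did not (0.578 and 0.333). Named list genes kept direction and call in 664 of 696 values, and none reversed. Without the filter 16.2% of 23420 genes were decreased. Leaving out numbers, and the alternatives for the count past -1 and for list genes, were added after the data were seen. DESeq2 and TMM were planned only for counts and were not run.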
